A study of Rattus norvegicus with 8 samples.

Results

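The deoxynucleotide synthesis enzymes are a set of 9 genes whose products make or activate the building blocks of DNA: Rrm1, Rrm2, Tk1, Tyms, Dut, Dck, Shmt1, Mthfd1 and Dtymk. They were chosen by name, and every probe whose RefSeq accession carries 1 of these symbols was taken. Of the 9 genes 8 had at least 1 matched probe, 12 probes in all, among 14400 named genes and 41012 probes on the array. No probe was matched to Shmt1, which is not analysed here. Of the 8 genes 7 were bright enough to be tested, and each of these was well above background on all 8 arrays. Dck was well above background on none.

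The samples were right kidneys of female F344/NSlc rats aged 10 weeks. There were 4 samples from unilaterally nephrectomized rats, in which the right kidney was the one left, and 4 samples from sham-operated rats. No other genotype, agent or diet is named for either group. The comparison addresses which transcripts differ in the kidney left behind while it takes over the work of the one removed. The design text places sampling at 2 days after surgery, whereas the source names give 2 days for nephrectomized and 1 day for sham kidneys. Should the source names hold, the day of sampling and the operation cannot be told apart in any difference given here. The labels do not say that replicates came from separate animals, so the spread behind each p-value is that between samples and may be technical. Whole kidney tissue was used, so more cells making a transcript and more of that transcript in each cell cannot be told apart.

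Cells need deoxynucleotides chiefly when they copy their DNA. Ribonucleotide reductase, built from the large subunit Rrm1 and the small subunit Rrm2, turns ribonucleotides into deoxyribonucleotides. The thymidine branch adds Tyms, which makes the thymine nucleotide from the uracil one with a folate cofactor, Dut, which removes dUTP and yields the substrate of Tyms, Dtymk, which phosphorylates the product, and Tk1, which salvages thymidine in the cytosol. Dck salvages deoxycytidine, and Shmt1 and Mthfd1 supply the folate-bound carbon. In mammalian cells Rrm2, Tk1 and Tyms transcripts are known to accumulate around S phase, and most tubule cells of the adult kidney are not dividing.

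None of the 7 tested genes passed the test, although 6 of them had values above sham by limma at an unadjusted p under 0.05. With limma and Benjamini-Hochberg adjustment over all 20908 features, 0 of 7 genes were higher and 0 were lower at an adjusted p under 0.05. Over all features 157, or 0.751%, were higher and 60, or 0.287%, were lower by that rule. At an unadjusted p under 0.05, 6 of 7 genes were higher and 0 were lower, against 2036 higher features, or 9.74%, and 1319 lower features, or 6.31%, overall. In 5 of 7 genes, Rrm1, Rrm2, Tk1, Tyms and Dtymk, every nephrectomized array lay above every sham array, and no gene had the reverse. Among all features 7.06% had groups that did not overlap with nephrectomized arrays higher, and 4.07% with nephrectomized arrays lower. The median log2 change of the 7 genes was 0.32, against 0.0088 over all features. For a single gene the two-sided exact permutation test over the 70 assignments of 4 and 4 arrays cannot give a p under 0.0286. Any gene whose groups do not overlap has that p, so Rrm1, Rrm2, Tk1, Tyms and Dtymk each had it.

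**Figure D1:**
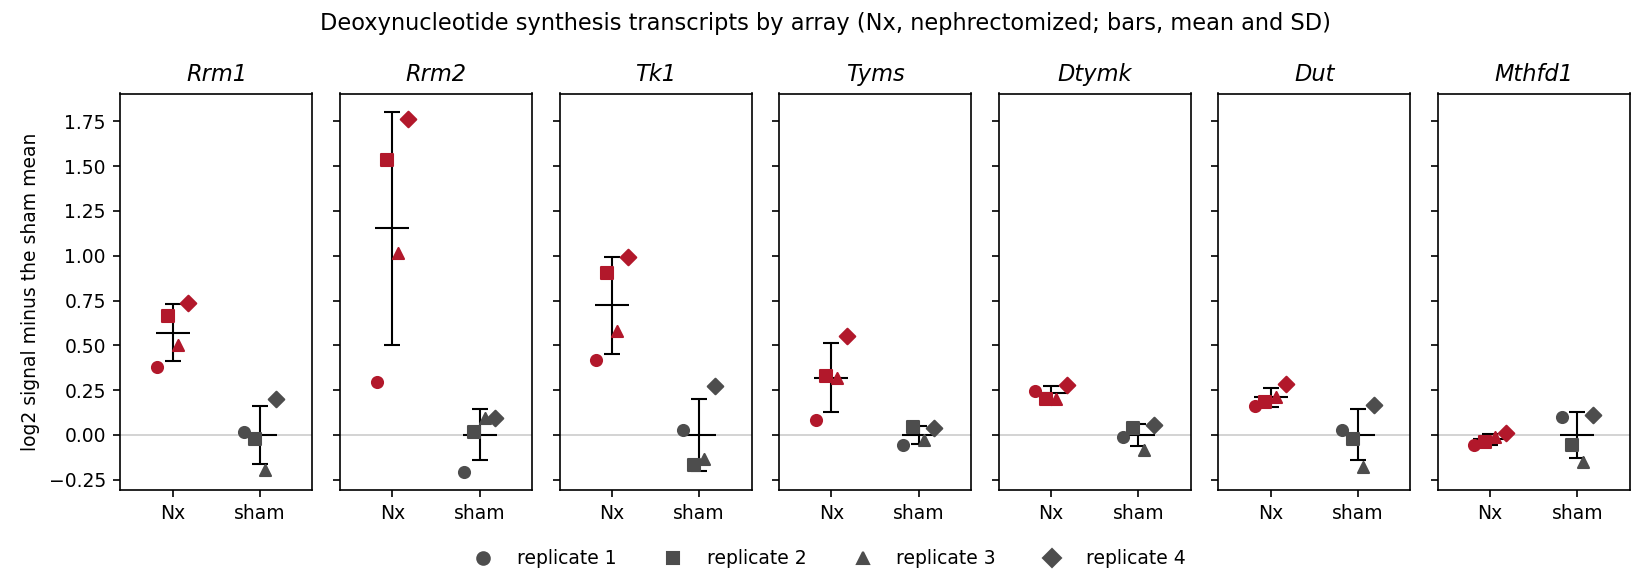
Log2 signal of each tested gene minus its sham mean on the vertical axis, 1 point per array, with nephrectomized arrays left of sham arrays and bars at the mean and SD. The groups are apart for Rrm1, Rrm2, Tk1, Tyms and Dtymk and overlap for Dut and Mthfd1, and the nephrectomized array of replicate 4 is the highest of its group in all 7 genes.

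The promoters of Rrm1, Tk1, Tyms and Dtymk are printed because the arrays of these genes stood apart by group, and that of Tk2 because it encodes the mitochondrial counterpart of Tk1. Each runs from 250 bases before to 50 bases after the start of transcription in RefSeq's annotation of assembly GRCr8, 5′ to 3′ along the gene. Capitals mark letters found on either strand for 5 motifs: E2F sites (TTTGGCGC, TTTCGCGC, TTTCCCGC or TTTGCCGC), the short GC-rich core GGCGGGA, the CCAAT box (CCAAT), the cell cycle homology region (TTTGAA or TTCGAA) and the GC box (GGGCGG).
Rrm1 (chr1:166235654-166235953, plus strand): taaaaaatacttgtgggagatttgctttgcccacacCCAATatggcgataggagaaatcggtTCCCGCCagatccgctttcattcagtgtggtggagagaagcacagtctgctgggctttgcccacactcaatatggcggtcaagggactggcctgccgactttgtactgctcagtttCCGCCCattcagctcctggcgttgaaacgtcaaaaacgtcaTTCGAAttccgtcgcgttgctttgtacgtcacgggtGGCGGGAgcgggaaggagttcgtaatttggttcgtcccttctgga
Tk1 (chr10:103544728-103545027, minus strand): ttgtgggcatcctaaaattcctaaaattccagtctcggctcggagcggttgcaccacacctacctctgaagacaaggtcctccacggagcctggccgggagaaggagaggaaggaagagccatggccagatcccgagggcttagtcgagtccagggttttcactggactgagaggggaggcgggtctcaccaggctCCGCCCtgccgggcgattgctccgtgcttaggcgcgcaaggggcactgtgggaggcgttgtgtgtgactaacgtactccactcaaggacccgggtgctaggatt
Tyms (chr9:120776034-120776333, minus strand): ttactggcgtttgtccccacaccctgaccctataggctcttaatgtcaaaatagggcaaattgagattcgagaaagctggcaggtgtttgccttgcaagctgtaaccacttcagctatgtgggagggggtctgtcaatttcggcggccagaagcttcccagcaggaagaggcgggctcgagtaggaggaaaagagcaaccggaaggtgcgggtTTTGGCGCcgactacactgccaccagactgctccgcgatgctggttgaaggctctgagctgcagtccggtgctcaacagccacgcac
Dtymk (chr9:101771684-101771983, minus strand): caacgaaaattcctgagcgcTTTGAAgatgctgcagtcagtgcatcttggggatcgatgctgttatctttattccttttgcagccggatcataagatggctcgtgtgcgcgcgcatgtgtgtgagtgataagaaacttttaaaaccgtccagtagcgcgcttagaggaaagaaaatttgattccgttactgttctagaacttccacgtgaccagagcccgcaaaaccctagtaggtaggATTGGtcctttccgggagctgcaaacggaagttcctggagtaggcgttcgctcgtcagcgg
Tk2 (chr19:715071-715370, plus strand): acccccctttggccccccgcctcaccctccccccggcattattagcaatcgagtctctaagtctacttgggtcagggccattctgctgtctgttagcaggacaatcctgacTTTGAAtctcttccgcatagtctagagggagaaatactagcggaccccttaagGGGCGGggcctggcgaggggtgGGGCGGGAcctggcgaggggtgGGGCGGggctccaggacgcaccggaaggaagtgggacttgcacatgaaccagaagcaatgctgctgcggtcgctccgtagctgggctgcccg
The promoter sequences at hand covered 7 of the 9 genes, with 8 start sites. Rrm2 and Mthfd1 were not among them. An E2F form was found in 2 of the 8, those of Tyms, where its first base is at position -37, and Shmt1, against 2.14% of 33469 rat promoters. The GGCGGGA core was found in 2 of the 8, against 10.496% of all. The CCAAT box was found in 3 of the 8, against 37.5%, the cell cycle homology region in 4, against 19.7%, and the GC box in 5, against 33.1%. The GGCGGGA core can overlap the GC box, as it does once in Tk2, and the reverse complement of TTTCCCGC shares its letters with the core. The motifs were chosen after values and sequences had been seen, and a match describes letters only.

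The subunits of ribonucleotide reductase had the lowest adjusted p and the largest change among the 7 genes, without passing the threshold. Rrm1, the large subunit with the regulatory sites, had a signal of 53.2, 64.8, 58.0 and 68.1% of the array's 75th percentile in nephrectomized replicates 1 to 4, against 41.3, 40.3, 35.8 and 47.1% in sham replicates 1 to 4. Its lowest nephrectomized array lay above its highest sham array. The means were 61.0 ± 6.71% and 41.1 ± 4.63% (SD, n = 4 each), a fold of 1.48. Rrm1 thus had a log2 change of 0.57 ± 0.107 (SE), with a limma adjusted p of 0.0517. The adjusted p was 0.0499 with quantile normalization, 0.0494 with cyclic loess, 0.0408 with normexp background correction and 0.0484 without nephrectomized replicate 1, under the threshold in each. Leaving out any other array gave a limma adjusted p over 0.05, at most 0.136. On slide 1 alone the log2 change was 0.52 and on slide 2 alone 0.62, and with slide as a block the limma adjusted p was 0.0757.

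Rrm1 had 2 further probes. Their log2 changes were 0.49 ± 0.141 and 0.38 ± 0.137 (SE), with limma p-values adjusted over all 25197 probes of 0.147 and 0.235. The groups did not overlap for the first of them and overlapped for the second.

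Rrm2, the small subunit that carries the radical needed for catalysis, varied most among the nephrectomized arrays. Its signal was 13.8, 32.6, 22.8 and 38.2% of the 75th percentile in nephrectomized replicates 1 to 4, against 9.76, 11.4, 12.03 and 12.01% in sham replicates 1 to 4. Nephrectomized replicate 1 was close to the sham arrays, and the other 3 were well above them. The means were 26.8 ± 10.8% and 11.3 ± 1.07% (SD, n = 4 each), a fold of 2.22 with a 95% interval of 1.41 to 3.50. Its log2 change was 1.15 ± 0.286 (SE), with a limma adjusted p of 0.0985. Without nephrectomized replicate 1 it was 1.44, with a limma adjusted p of 0.0151. With normexp background correction, which adds an offset of 50 to every signal, it was 0.61. On slide 1 alone it was 1.01 and on slide 2 alone 1.29, and with slide as a block the limma adjusted p was 0.113.

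The other Rrm2 probe stood well above background on 4 nephrectomized and 2 sham arrays. Its signal was 10.8, 27.6, 18.9 and 43.4% of the 75th percentile in nephrectomized replicates 1 to 4, against 5.14, 3.75, 8.42 and 4.82% in sham replicates 1 to 4. Its arrays followed the same order within the nephrectomized group as the first probe, and the groups did not overlap. The log2 change was 2.07 ± 0.417 (SE), with a limma p adjusted over all probes of 0.0631.

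**Figure D2:**
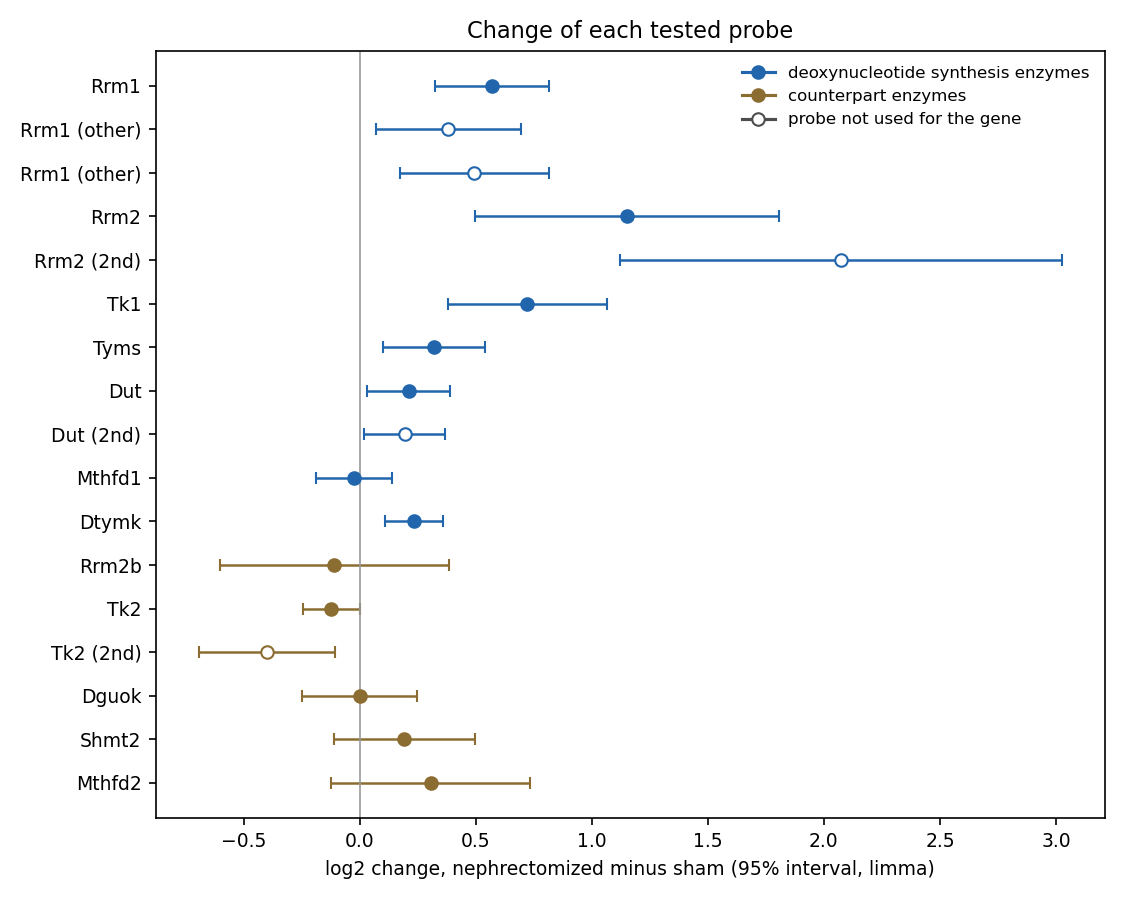
Log2 change of each tested probe, nephrectomized minus sham, on the horizontal axis with its 95% limma interval, for the enzymes and, below them, their counterparts. Open points are probes not used for their gene. Both Rrm2 probes, at 1.15 and 2.07, lie farthest to the right, and both Tk2 probes lie below 0.

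Thymidine salvage and the Tyms step gave the next values. Tk1, the cytosolic thymidine kinase, had a signal of 31.2, 43.6, 34.9 and 46.5% of the 75th percentile in nephrectomized replicates 1 to 4, against 23.8, 20.8, 21.3 and 28.2% in sham replicates 1 to 4. All 4 nephrectomized arrays were above all sham arrays. The means were 39.0 ± 7.20% and 23.5 ± 3.38% (SD, n = 4 each), a fold of 1.65. On the log2 scale this is a change of 0.72 ± 0.1496 (SE), with a limma adjusted p of 0.0628. The slides gave like values, 0.73 on slide 1 alone and 0.72 on slide 2 alone, with a limma adjusted p of 0.0852 with slide as a block. Over probes well above background on all arrays the adjusted p was 0.0444, and with trend and robust variance it was 0.0327.

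Tyms, thymidylate synthase, had a signal of 95.9, 114, 113 and 133% of the 75th percentile in nephrectomized replicates 1 to 4, against 87.1, 93.5, 88.8 and 93.0% in sham replicates 1 to 4. The groups did not overlap, but nephrectomized replicate 1 was only just above the highest sham array. The means were 114 ± 15.1% and 90.6 ± 3.14% (SD, n = 4 each), a fold of 1.25. Tyms had a log2 change of 0.32 ± 0.096 (SE), with a limma adjusted p of 0.151. It was 0.21 on slide 1 alone and 0.43 on slide 2 alone, with a limma adjusted p of 0.160 with slide as a block.

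Dtymk and Dut, the enzymes on either side of the Tyms step, had small changes. Dtymk, which phosphorylates thymidine monophosphate, had a signal of 600.3, 582, 582 and 614% of the 75th percentile in nephrectomized replicates 1 to 4, against 502, 520.1, 477 and 525% in sham replicates 1 to 4. The groups did not overlap. The means were 595 ± 15.6% and 506 ± 21.6% (SD, n = 4 each), a fold of 1.18, and the log2 change was 0.23 ± 0.055 (SE), with a limma adjusted p of 0.0860. Its log2 change was 0.21 on slide 1 alone and 0.26 on slide 2 alone, and the limma adjusted p was 0.115 with slide as a block and 0.0436 with trend and robust variance.

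Dut, the dUTP pyrophosphatase, had a signal of 997, 1011, 1034 and 1085% of the 75th percentile in nephrectomized replicates 1 to 4, against 909, 878, 789 and 1002% in sham replicates 1 to 4. Sham replicate 4 lay above nephrectomized replicate 1, so the groups overlapped. Dut had a log2 change of 0.21 ± 0.079 (SE), a fold of 1.16, with a limma adjusted p of 0.248 and an exact permutation p of 0.0571. A second Dut probe had a log2 change of 0.19 ± 0.077 (SE) and also overlapped.

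Mthfd1, the cytosolic enzyme that interconverts folate-bound carbon, had nearly equal means. Its signal was 1852, 1879, 1913 and 1942% of the 75th percentile in nephrectomized replicates 1 to 4, against 2064, 1856, 1734 and 2081% in sham replicates 1 to 4. The nephrectomized arrays all lay within the range of the sham arrays. Mthfd1 had a log2 change of -0.02 ± 0.071 (SE), with a 95% interval of -0.19 to 0.14 and a limma adjusted p of 0.909. Its sign was not the same on both slides, at -0.07 on slide 1 alone and 0.02 on slide 2 alone.

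Dck, the deoxycytidine kinase that is best known from lymphoid cells, was measured at 2.66, 3.12, 1.78 and 2.86% of the 75th percentile in nephrectomized replicates 1 to 4, against 1.79, 2.51, 2.03 and 1.47% in sham replicates 1 to 4. None of these values was well above background, so no fold is given.

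The arrays of the nephrectomized group kept nearly the same order from gene to gene. Replicate 4 was the highest nephrectomized array in 7 of 7 genes, and over all features it was the highest in 26.2%. Replicate 1 was the lowest in 6 of 7 genes, against 25.5% of all features, and replicate 2 was the lowest for Dtymk. The mean of the 7 genes, as log2 minus the sham mean, was 0.22, 0.54, 0.40 and 0.66 in nephrectomized replicates 1 to 4, against -0.014, -0.023, -0.096 and 0.13 in sham replicates 1 to 4. The 12 tested genes of a proliferation list (replication helicase, cyclin and related genes) had means of 0.60, 1.31, 1.02 and 1.58 in nephrectomized replicates 1 to 4, against 0.011, -0.18, 0.12 and 0.054 in sham replicates 1 to 4. Both lists placed the 4 nephrectomized arrays in the same order. The share of probes well above background did so too, at 59.5, 63.3, 61.5 and 66.0% in nephrectomized replicates 1 to 4, against 61.0, 61.3, 62.3 and 61.6% in sham replicates 1 to 4. The 75th percentile signal, by which every value was scaled, ran in the reverse order in the nephrectomized group. It was 497, 457, 485 and 388 in nephrectomized replicates 1 to 4, against 643, 544, 460 and 562 in sham replicates 1 to 4. The part of any of these in the values of the 7 genes was not tested.

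**Figure D3:**
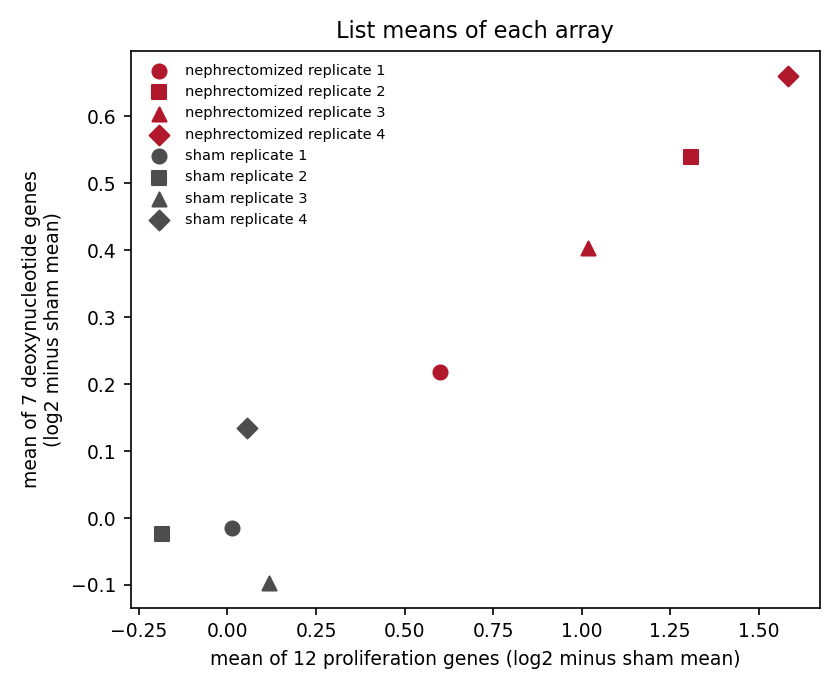
Mean of the 7 tested deoxynucleotide genes on the vertical axis against the mean of the 12 tested proliferation genes on the horizontal axis, both as log2 minus the sham mean, 1 point per array. The nephrectomized arrays lie between 0.22 (replicate 1) and 0.66 (replicate 4) on the vertical axis, and the sham arrays lie between -0.096 and 0.13.

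Of the proliferation list 12 of 14 genes were on the array and tested. Over all features 0.751% were higher at the limma adjusted threshold, and 6 of these 12 genes rose by it. They were E2f1, a transcription factor of S phase genes, with a log2 change of 1.84 ± 0.221 (SE), Cdk1, the mitotic kinase, with 2.30 ± 0.391, Ccne1, the G1 cyclin, with 1.45 ± 0.217, and the helicase subunits Mcm6, Mcm3 and Mcm2, with 1.56 ± 0.199, 1.41 ± 0.185 and 0.62 ± 0.107. The limma adjusted p was 0.0150 for E2f1 and 0.0446 for Mcm2. The second Mcm2 probe had a log2 change of 0.38 ± 0.287 (SE) and overlapped between the groups. Sham replicate 1 stood high on that probe, and without it the change was 0.68 with no overlap. Other probes of E2f1, Ccne1 and Mcm3 were too dim to be tested. Each was well above background on 2 nephrectomized arrays, and on 0, 1 and 0 sham arrays. Their log2 changes were 1.24, 0.43 and 1.85. The groups overlapped for E2f1 and Ccne1 and not for Mcm3. Mki67, at 1.64 ± 0.348, Ccna2, at 1.96 ± 0.366, and Pcna, at 0.30 ± 0.079, did not pass the limma adjusted threshold, and neither did Mcm4, at 0.27 ± 0.272, Mcm7, at -0.04 ± 0.067, and Ccne2, at 0.23 ± 0.199. Leaving out 1 array gave 0.09 to 0.52 for Mcm4, with the lowest value without sham replicate 2 and the highest without sham replicate 1. The median log2 change of the list was 1.43. With slide as a block 4 of the 6 passed, and the limma adjusted p was 0.0508 for Cdk1 and 0.0697 for Mcm2. Leaving out nephrectomized replicate 1 gave 8 such genes at the adjusted threshold, leaving out nephrectomized replicate 4 gave 3, and leaving out any other array gave 0 to 2.

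The question of unequal change within pairs of related enzymes was asked of 6 pairs, of which 4 could be computed, with the exact permutation p adjusted over those 4. In each pair the log2 values of both genes were subtracted within an array. The pairs of Dck with Dguok and of Shmt1 with Shmt2 were not computed.

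The thymidine kinases of the cytosol and the mitochondrion had log2 changes of opposite sign. The mitochondrial enzyme Tk2, which serves cells that are not dividing, had a signal of 683, 671, 671 and 692% of the 75th percentile in nephrectomized replicates 1 to 4, against 693, 752, 748 and 768% in sham replicates 1 to 4. Every nephrectomized array was below every sham array, though nephrectomized replicate 4 and sham replicate 1 nearly met. Tk2 had a log2 change of -0.12 ± 0.054 (SE), with a limma adjusted p of 0.310. A second Tk2 probe also had no overlap, with a log2 change of -0.40 ± 0.128 (SE) and a limma p adjusted over all probes of 0.187. Sham replicate 4 stood high on that probe, and without it the change was -0.27. The difference Tk1 minus Tk2 was 0.85 higher in nephrectomized arrays on the log2 scale, with a 95% interval of 0.32 to 1.28. Its exact permutation p was 0.0286 and its adjusted p 0.0571, and it was higher in 4 of 4 nephrectomized arrays than in any sham array. On slide 1 alone it was 0.82 and on slide 2 alone 0.87.

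The small subunits of ribonucleotide reductase were set against each other in the same way. Rrm2b, the p53-inducible small subunit that serves resting cells and repair, had a signal of 9.92, 14.3, 11.03 and 11.7% of the 75th percentile in nephrectomized replicates 1 to 4, against 8.39, 11.8, 14.7 and 17.0% in sham replicates 1 to 4. The groups overlapped, and the log2 change was -0.11 ± 0.215 (SE), with a limma adjusted p of 0.853. The difference Rrm2 minus Rrm2b was 1.26 higher in nephrectomized arrays on the log2 scale, with a 95% interval of 0.26 to 2.21, an exact permutation p of 0.0286 and an adjusted p of 0.0571. The arrays did not overlap, and the slides gave 0.75 on slide 1 alone and 1.78 on slide 2 alone. With normexp background correction the difference was 0.51.

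The small subunit Rrm2 and the large subunit Rrm1 did not pass the test of unequal change. The difference Rrm2 minus Rrm1 was 0.58, with a 95% interval of -0.37 to 1.24, an exact permutation p of 0.0857 and an adjusted p of 0.114. Nephrectomized replicate 1, at -0.085 relative to the sham mean, lay within the sham range, and with normexp background correction the difference was 0.16. On slide 1 alone it was 0.49 and on slide 2 alone 0.68. Without nephrectomized replicate 1 the differences for Rrm2 minus Rrm1, Rrm2 minus Rrm2b and Tk1 minus Tk2 were 0.81, 1.47 and 0.95, each with an adjusted exact permutation p of 0.0381. The adjusted p of Rrm2 minus Rrm2b and of Tk1 minus Tk2 fell only because Rrm2 minus Rrm1 also reached the smallest exact p.

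**Figure D4:**
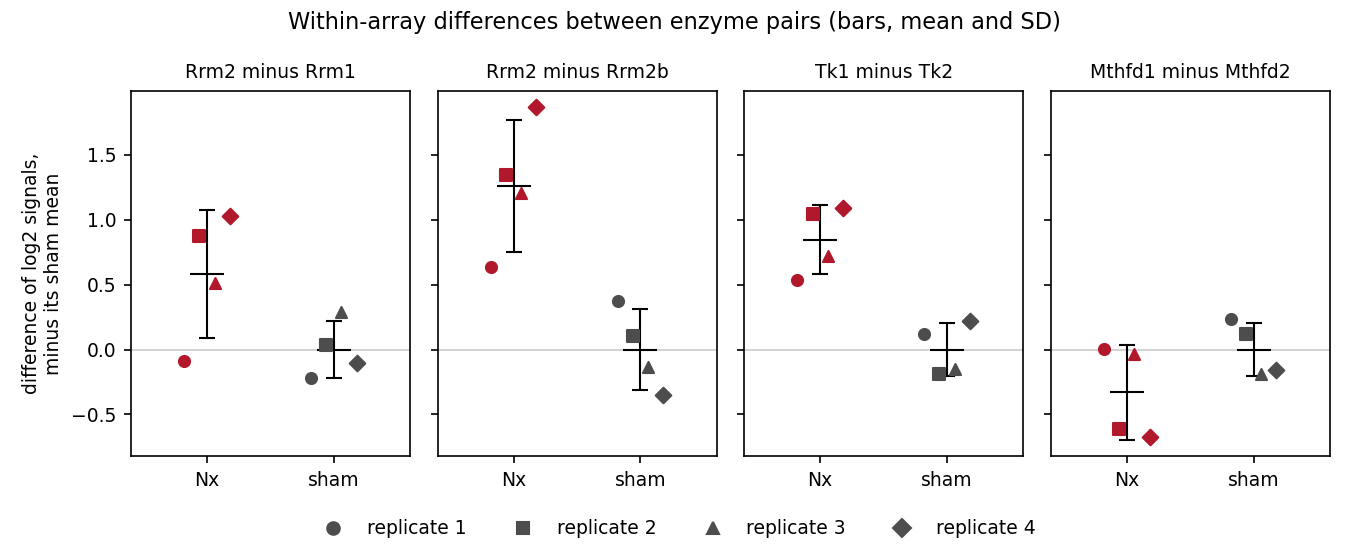
Within-array difference of log2 signals for the 4 enzyme pairs, minus its sham mean, on the vertical axis, 1 point per array, with nephrectomized arrays left of sham arrays and bars at the mean and SD. Nephrectomized and sham arrays are apart for Rrm2 minus Rrm2b and Tk1 minus Tk2 and overlap for the other pairs.

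Mthfd2, the mitochondrial enzyme set against Mthfd1, was near background, and the groups overlapped for 1 of its probes and not for the other 2. Its tested probe was well above background on 3 nephrectomized and 2 sham arrays and had a log2 change of 0.31 ± 0.187 (SE), with a limma adjusted p of 0.467. The difference Mthfd1 minus Mthfd2 was -0.33, with a 95% interval of -0.90 to 0.19 and an adjusted exact permutation p of 0.229. It was -0.48 on slide 1 alone and -0.18 on slide 2 alone. Another probe, well above background on 3 nephrectomized arrays and on 0 sham arrays, had 7.07, 8.14, 8.10 and 10.9% of the 75th percentile in nephrectomized replicates 1 to 4, against 4.99, 4.17, 4.22 and 3.16% in sham replicates 1 to 4. With sham signals raised to at least the lowest signal above background on each array, it was 1.80-fold higher in nephrectomized kidneys. The remaining probe, with the same detection, was 1.31-fold higher. Nephrectomized arrays entered as measured, also the 1 not well above background, so neither fold is a strict lower bound. Neither was bright enough to enter the test.

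Among genes that supply deoxynucleotides or control their pool, those that passed the test were 2 of the 5 tested nucleoside diphosphate kinases, which add the last phosphate. Of 18 listed genes 17 were tested, 2 rose and 0 fell, against 0.751% and 0.287% of all features. Nme1 had a signal of 2364, 2466, 2398 and 2503% of the 75th percentile in nephrectomized replicates 1 to 4, against 1762, 1882, 1900 and 1979% in sham replicates 1 to 4. Its log2 change was 0.37 ± 0.056 (SE), a fold of 1.29, with a limma adjusted p of 0.0359. Nme4, the mitochondrial form, had means of 1818 ± 111% and 1277 ± 133% (SD, n = 4 each) and a log2 change of 0.51 ± 0.089 (SE), with a limma adjusted p of 0.0436. The limma adjusted p of Nme1 was over 0.05 when any 1 array other than nephrectomized replicate 1 was left out, and that of Nme4 when any 1 array was left out. Nme1 and Nme4 had log2 changes of 0.41 and 0.61 on slide 1 alone and of 0.34 and 0.42 on slide 2 alone. With slide as a block the limma adjusted p was 0.0484 for Nme1 and 0.0548 for Nme4. It was 0.0522 and 0.0534 with quantile normalization and 0.0547 and 0.0569 with cyclic loess, so that 0 genes of the list passed in either. The other nucleoside diphosphate kinases did not pass, with log2 changes of 0.23 ± 0.069 for Nme2, whose groups did not overlap, 0.13 ± 0.093 for Nme6 and -0.24 ± 0.092 for Nme3, whose unadjusted limma p was 0.0317.

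Dctpp1, which breaks down dCTP and other pyrimidine triphosphates, had the next lowest p of that list, with 527, 729, 530.2 and 776% of the 75th percentile in nephrectomized replicates 1 to 4, against 387, 373, 384 and 415% in sham replicates 1 to 4. The groups were far apart, and nephrectomized replicates 2 and 4 were the higher ones, as for Rrm2 and Tk1. The log2 change was 0.69 ± 0.136 (SE), with a limma adjusted p of 0.0550. At an unadjusted limma p under 0.05, 9 of the 17 genes were higher and 2 were lower, against 9.74% and 6.31% of all features. Groups did not overlap in 9 higher genes and 1 lower gene, against 7.06% and 4.07% of all features. The median log2 change of the list was 0.16. Dguok, the mitochondrial deoxyguanosine kinase, had a log2 change of 0.00 ± 0.108 (SE).

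The wider pathways had medians near that of all features. Of all features 9.74% were higher and 6.31% lower at an unadjusted limma p under 0.05. Of 17 tested genes of folate one-carbon metabolism 0 passed the limma adjusted threshold in either direction, 0 had an unadjusted p under 0.05, and the median log2 change was 0.04. Shmt2, the mitochondrial serine hydroxymethyltransferase, had a log2 change of 0.19 ± 0.133 (SE). The lowest limma adjusted p of the folate list was 0.392, for Amt of the glycine cleavage system, at 0.20 ± 0.102, followed by Mthfd2l at -0.58 ± 0.327 and Dld at 0.14 ± 0.080. Mthfd2l was well above background on 3 nephrectomized and 4 sham arrays, and without sham replicate 1, which was high, its change was -0.24. Its other probe, well above background on 2 nephrectomized arrays and 1 sham array, ran the other way at 0.63.

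Of 17 tested genes of de novo purine and pyrimidine synthesis 0 passed the limma adjusted threshold and 2 had an unadjusted p under 0.05, both higher. These were Pfas, a purine ring enzyme, with a log2 change of 0.30 ± 0.062 (SE) and a limma adjusted p of 0.0648, and Ctps1, which makes CTP, with 0.44 ± 0.095 and 0.0698. Ppat, another enzyme of purine synthesis, had -0.19 ± 0.092 and a limma adjusted p of 0.368. The median log2 change was 0.06. Of 17 tested genes of nucleoside salvage, transport and breakdown 0 passed the limma adjusted threshold and 1 had an unadjusted p under 0.05, Ada, the adenosine deaminase, with 0.29 ± 0.091 and a limma adjusted p of 0.164. Next were the nucleoside transporters Slc28a2, with -0.17 ± 0.076, and Slc29a1, with 0.24 ± 0.110. The median there was 0.04. For both lists the share of all features higher at an unadjusted limma p under 0.05 was 9.74%.

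**Figure D5:**
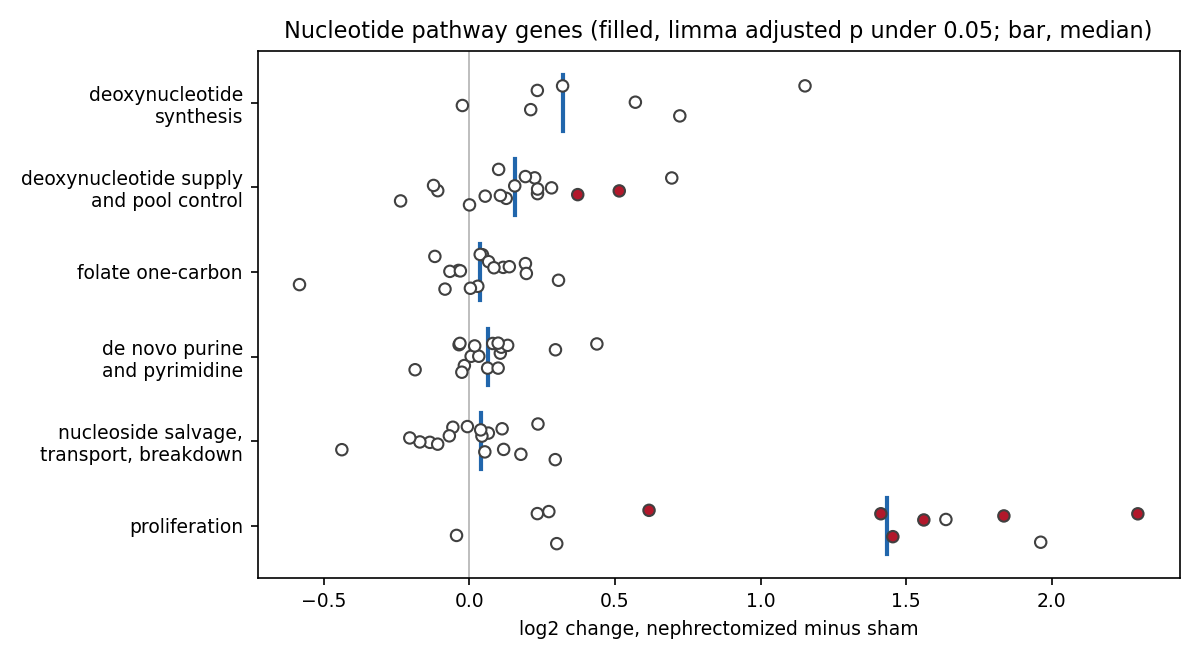
Log2 change, nephrectomized minus sham, of each tested gene on the horizontal axis for the deoxynucleotide enzymes and 5 other lists, with a bar at the median of each list. Filled points passed a limma adjusted p of 0.05, of which there are 2 in the supply list and 6 in the proliferation list, and the medians run from 0.04 to 1.43.

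No deoxynucleotide enzyme passed the threshold, so none had neighbours named by that criterion. For the 4 with the lowest adjusted p, chosen after their values were seen, the most similar named genes were sought among 10194 genes. Similarity was the root mean square difference of log2 values, minus the sham mean, over the 8 arrays. Such a measure holds the difference between the groups, so near genes have group changes of like size. Shared regulation was not tested. Rrm1 was nearest to Mcm2, a subunit of the replication helicase, at 0.044, then to Pmf1 and Kpna2. Tk1 was nearest to Stmn1, which destabilises microtubules, at 0.094, then to Dctpp1 and Mcm2. Rrm2 was nearest to Aspm, a spindle pole protein, at 0.10, then to Dlgap5 and H1f1. Dtymk, with its small change, was nearest to Clic1 at 0.022, then to Prep and Snrpf.

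Markers of the labelled tissue were present. All 6 proximal tubule markers, 5 distal nephron markers, 3 podocyte markers, 3 endothelial markers and 3 red cell markers were well above background on all arrays. The summed signal of the proximal tubule markers was 48173 to 57616% of the 75th percentile in nephrectomized and 50688 to 59107% in sham arrays, and that of the red cell markers 273 to 361% and 233 to 354%. One by one, the 6 proximal tubule markers had log2 changes of -0.33 to 0.11, and 0 passed the limma adjusted threshold. Of 6 leukocyte markers 5 were on the array and 4 were tested, with summed signals of 1995 to 2391% in nephrectomized and 2112 to 2425% in sham arrays. The brightest markers weigh most in such sums. Lyz2 alone had means of 1873% in nephrectomized and 1927% in sham arrays. Adgre1, a macrophage surface protein, fell, with a log2 change of -0.51 ± 0.091 (SE) and a limma adjusted p of 0.0474 that was over 0.05 when any 1 array was left out. Cd3e, of T cells, was well above background on 1 nephrectomized and 0 sham arrays. All 4 tested leukocyte markers had negative changes, and Ptprc, the common leukocyte antigen, had -0.33 ± 0.122, with a limma adjusted p of 0.239. Among the distal nephron markers Calb1, a calcium-binding protein, had groups that did not overlap and a log2 change of 0.46 ± 0.087, with a limma adjusted p of 0.0517. The other distal nephron markers overlapped between the groups, with log2 changes from -0.05 to 0.22. The part of these cells in the values of the enzymes was not tested. The arrays lay on 2 slides with 2 nephrectomized and 2 sham arrays each, and the position on the slide cannot be told apart from the group. The 75th percentile signal was 388 to 497 in nephrectomized and 460 to 643 in sham arrays.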

How the data were processed

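Kidney total RNA was labelled with Cy3 for 1-colour Agilent rat arrays, per the labels' protocols. The scanner files, 1 for each array, came from Agilent Feature Extraction, version 10.5.1.1 in the file headers. The authors' processed signal in them is an intensity, linear, with background and spatial trend removed inside each array and no scaling across arrays, per the file headers. Flags of 0 or 1 mark spots well above background, saturated or outlying. The deposited series table holds log2 values. Set against the scanner values these had a slope of 1.00 and a correlation over 0.999 across 30513 shared probes, so the table is on the 75th percentile scale, centred per probe, with the direction unchanged. Its medians by column were 0.00116, 0.0122, -0.000822 and 0.0154 for nephrectomized and -0.0145, -0.00235, -0.000988 and -0.00954 for sham replicates 1 to 4.

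Log2 processed signals minus each array's 75th percentile were used. Of 45018 spots 1639 control spots and outlier spots were left out, which gave 41012 probes, of which 18713 were named through RefSeq accessions. Testing required a signal well above background on at least 4 arrays, and a gene was its probe with the highest mean, which gave 20908 features, 10217 of them named. The main model was limma (version 3.58.1, R 4.3.3; lmFit, eBayes) without covariates, with 6 residual and 2.37 prior degrees of freedom, Benjamini-Hochberg adjustment and a threshold of 0.05. A two-sided exact permutation test over the 70 assignments served for pairs of enzymes and single genes. The steps were tested on simulated arrays. Genes, lists, motifs and pairs were chosen with earlier results of these data known. Named were all enzymes with each probe, called genes and up to 3 genes of lowest adjusted p in each list, counterpart enzymes and the proliferation list. The marker genes Adgre1, Ptprc, Calb1, Cd3e and Lyz2, Nme3, Nme6 and the neighbours of uncalled enzymes were added after values were seen. So were the other probes of Mcm2, E2f1, Ccne1 and Mcm3, and the values of uncalled genes and second probes without 1 array. The ranges of change of tubule markers were added then too. Of the folate list, 1 gene is counted and its values are not reported here. There were 22 alternatives. The normexp setting used the median spot signal, as the mean was not in the files. Replicate numbers were not taken as pairs: deviations of same-numbered arrays correlated at 0.14, 0.011, -0.057 and -0.21 across features for numbers 1 to 4. The number of arrays limits the precision.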

Additional observations from a re-analysis of the deposited data

Results flagged for a closer look

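Among 48 groups of 4 values looked at (every probe of the enzymes and of their counterparts in the pairs, and the pair differences), 3 held an array far from the other 3, and chance marks about 1 in 20. The gap to the nearest array took 0.922 of the group's range for the Rrm1 probe A_44_P299722, where sham replicate 1 was low at 8.93% of the 75th percentile, against 10.6 to 10.7% in the other sham arrays. It took 0.849 of the range for the Tk2 probe A_44_P248358, where sham replicate 4 was high at 24.6%, against 16.6 to 17.6% in the other sham arrays. It took 0.871 of the range for the Shmt2 probe A_44_P501843, where nephrectomized replicate 2 was low at 843%, against 1138 to 1190% in the other nephrectomized arrays, and without that array the log2 change of Shmt2 was 0.31 in place of 0.19.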

How the results depend on the processing

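The count of 0 deoxynucleotide enzymes higher became 1 (Rrm1) with normexp background correction, with quantile normalization and with cyclic loess, 2 (Rrm1 and Tk1) with probes well above background on all arrays, and 3 (Rrm1, Tk1 and Dtymk) with trend and robust variance. Leaving out 1 array gave 0 to 2, the 2 being Rrm1 and Rrm2 without nephrectomized replicate 1. It was 0 in the other 16 of 22 alternatives, and 0 enzymes were lower in all 22. The 6 enzymes at an unadjusted p under 0.05 became 2 with slide 1 alone, 4 with slide 2 alone and 5 or 6 in the rest. No called result changed sign.

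Features higher and lower numbered 157 and 60. They numbered 17 and 3 with no filter on dim probes, 295 and 99 with probes above background on all arrays, 399 and 132 with trend and robust variance, 69 and 31 with slide as a block, 0 and 0 within either slide alone, and 18 to 162 and 4 to 35 leaving out 1 array. Without the dim-probe filter more features enter the adjustment, and leaving out arrays or using 1 slide leaves fewer samples. The cause of the other moves was not tested. With the replicate number as a block, which no label says pairs the animals, 6 features were higher, 4 were lower and 0 were enzymes. Pair differences ranged from 0.43 to 0.81 for Rrm2 minus Rrm1, from 1.06 to 1.47 for Rrm2 minus Rrm2b and from 0.76 to 0.95 for Tk1 minus Tk2 leaving out 1 array. Their adjusted exact p was under 0.05 only without nephrectomized replicate 1, among the settings run (within 1 slide the test cannot reach 0.05). With all arrays, Rrm2 minus Rrm2b and Tk1 minus Tk2 were already at the smallest exact p. Their adjusted exact p of 0.0571 could be lower only if another pair reached that smallest p too. Rrm2 minus Rrm1 did so without nephrectomized replicate 1. The supply list had 0 to 3 genes higher over the alternatives, the proliferation list 0 to 8, whose medians were 0.92 to 1.59. Dim signals limit Rrm2, Rrm2b, Mthfd2 and Dck.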
